A study of Sus scrofa with 23 samples.

Results

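The prefrontal cortex of pigs injected with saline was described in 11 animals, of 23 in the series, chosen by their labelled treatment: 5 were killed 1 day and 6 were killed 1 week after the injection. All were awake female adolescent Danish slaughter pigs of 20 kg, killed with pentobarbital, and the brain was snap frozen. The labels give no genotype. The remaining animals had received 0.08 mg/kg psilocybin intravenously in place of saline, 6 of them killed after 1 day and 6 after 1 week, and were used here only for the same time comparison. The series text gives 6 animals in each group, and the sixth saline animal of the 1 day group was not analysed here. Poly-A RNA of each animal was sequenced as 1 library. The labels divide the animals into 2 batches without saying what a batch was, with 2 saline 1 day and 3 saline 1 week animals in batch 1 and 3 of each in batch 2. Animals are called by the ends of their labels, with 1d for 1 day and 1w for 1 week: 1d_256 and 1d_260 of batch 1 and 1d_416, 1d_418 and 1d_420 of batch 2, and 1w_245, 1w_252 and 1w_254 of batch 1 and 1w_424, 1w_426 and 1w_428 of batch 2. Every animal had been handled and injected, so the baseline is that of saline-injected, not of untouched, pigs.

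The prefrontal cortex is built from excitatory pyramidal neurons, which release glutamate, and from inhibitory interneurons, which release GABA and often a neuropeptide. Astrocytes take up glutamate and potassium, oligodendrocytes wrap axons in myelin, and microglia are the resident immune cells. Serotonin reaches the cortex through axons from the brainstem and acts there on receptors such as 5-HT2A, the main target of psilocin, and neuronal activity switches on immediate early genes within minutes.

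Libraries of the saline animals held from 10570456 to 17206665 assigned counts. Levels within a gene are given in CPM (counts scaled to the same library total), and levels compared between genes in TPM (counts divided by the annotated exon length and scaled to the same sum in each library). After batch means were removed, 31.34% of the variance between the 11 animals lay on the first principal component, where saline 1 day animal 1d_420 (42.2) and saline 1 week animal 1w_245 (30.3) stood apart from the other 9, which lay between -15.9 and 1.305. Their scores were also the highest of the 11 for cytosolic ribosomal proteins (0.84 and 0.63) and for nuclear genes of the respiratory chain (0.52 and 0.43). A list score is the mean log2 CPM of a list's members relative to the mean of the 11 animals. Fewer cells of a type and less RNA per cell cannot be told apart in bulk tissue, and this holds for every cell type marker below.

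Of 25880 genes, 15198 reached a mean of 1 TPM, 8680 reached 10 TPM, 1300 reached 100 TPM and 69 reached 1000 TPM, and 4827 had no count in any of the 11 animals. Genes of the mitochondrial genome took 32.79% of all TPM on average, from 25.86% to 37.33% between animals. The leading one was ATP6, a subunit of ATP synthase, at 60793 ± 8696 TPM (SD, n = 11), followed by the cytochrome c oxidase subunits COX3 (41687 TPM), COX1 (40372 TPM) and COX2 (29828 TPM).

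Among nuclear genes with a symbol, NRGN stood first. NRGN encodes neurogranin, a postsynaptic protein that binds calmodulin in excitatory neurons (ENSSSCG00000039322, susScr11 chromosome 9, 51974528 to 51975691). It had 14621 ± 1592 TPM (SD, n = 11), with 12600 in the lowest, 14372 in the median and 18169 in the highest animal. TPM depend on the mitochondrial share: scaled over nuclear genes alone, the mean was 21756 TPM for NRGN, and 53 of 62 baseline levels compared moved by more than the SD between animals. Calmodulin itself, the calcium sensor, was also near the top, with 3080 ± 437 TPM for CALM2. The ubiquitin gene UBB (3806 ± 541 TPM), the lipid carrier gene APOE (3345 ± 468 TPM), the synaptic fusion gene SNAP25 (2602 ± 203 TPM), the metallothionein gene MT3 (2346 ± 300 TPM), the chaperone gene CLU (2148 ± 281 TPM), the CaMKII inhibitor gene CAMK2N1 (1859 ± 90.2 TPM) and the actin-binding thymosin gene TMSB4X (1851 ± 323 TPM) were also among the 15 most abundant. Of these 15, 5 had no symbol, among them the most abundant (ENSSSCG00000035520, chromosome X, 22068922 to 22069186) at 27685 ± 3538 TPM. Its annotated exons span only 225 bases and those of NRGN 261, and a level per length is uncertain where the annotation leaves out part of a transcript. The 15 genes took 11.63% of nuclear TPM.

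Markers of the labelled tissue were present, and 13 of 22 markers of other brain regions stayed below 1 TPM. All 12 excitatory neuron markers reached 1 TPM, led after NRGN by the kinase gene CAMK2A (1680 ± 263 TPM), the vesicular glutamate transporter gene SLC17A7 (859 ± 163 TPM) and the transcription factor gene NEUROD2 (110 ± 16.5 TPM). All 16 inhibitory neuron markers did too, led by CCK (1446 ± 116 TPM), LAMP5 (198 ± 46.9 TPM), NPY (149 ± 29.1 TPM) and the GABA synthesis gene GAD1 (144 ± 28.2 TPM). Bulk tissue does not show which cells made each RNA, so the level of CCK cannot be assigned to interneurons. The interneuron class genes SST (99.1 ± 16.2 TPM), PVALB (52.7 ± 15.1 TPM) and VIP (31.3 ± 3.53 TPM) were all measured. Of 20 cortical layer genes 19 reached 1 TPM, led by CRYM (330 ± 74.2 TPM), PCP4 (294 ± 68.6 TPM), POU3F3 (78.9 ± 16.5 TPM) and the deep-layer gene TBR1 (43.0 ± 10.4 TPM). Among the other-region markers, ISL1 had 0 counts in all 11 animals, as did the ependymal gene TMEM212. In the smallest library a count of 0 allows up to 0.284 CPM, which covers counting error only. The highest gene of that list was PPP1R1B (45.4 ± 6.59 TPM), the striatal dopamine signalling gene, which cortical neurons also express. Choroid plexus genes were low, with AQP1 at 3.10 ± 3.61 TPM and TTR at 2.45 ± 3.35 TPM.

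Glial genes were abundant. The astrocyte markers GFAP (944 ± 193 TPM), NDRG2 (478 ± 90.8 TPM), the glutamate transporter gene SLC1A3 (271 ± 60.9 TPM) and the gap junction gene GJA1 (179 ± 33.7 TPM) led their list, in which all 13 reached 1 TPM. Myelin genes included MBP (1679 ± 934 TPM), MAG (299 ± 106 TPM) and CLDN11 (281 ± 92.5 TPM). Microglial genes were lower, with SPI1 at 42.2 ± 4.77 TPM, LAPTM5 at 37.1 ± 6.25 TPM, TYROBP at 35.4 ± 5.38 TPM and CSF1R at 29.9 ± 6.18 TPM. Genes of the vessel wall were led by the pericyte gene RGS5 (52.1 ± 9.61 TPM) and the endothelial gene TIE1 (28.8 ± 6.67 TPM). Genes of blood and meninges were counted in every library: HBB, a haemoglobin chain, had 146 ± 101 TPM, and PTGDS, which meningeal cells and oligodendrocytes both make, had 539 ± 88.1 TPM.

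Serotonin receptor genes were low beside the leading glutamate and GABA receptor genes, whereas lower members of those lists, among them GRIN2D and GABRG3, lay below HTR2A on average. HTR2A had the highest mean among the serotonin receptor genes measured, in a list of which 12 of 18 genes were matched. HTR2A encodes the 5-HT2A receptor (ENSSSCG00000037452, chromosome 11, 20555709 to 20620561). It had 7.12 ± 1.90 TPM (SD, n = 11), from 4.61 to 9.96 with a median of 7.24, and exceeded HTR2C (5.22 ± 1.43 TPM) in 10 of 11 animals. HTR2C, the ion channel receptor HTR3A (4.55 ± 1.205 TPM) and HTR7 (4.44 ± 1.39 TPM) were not separated by their spread: HTR2C exceeded HTR3A in 7 animals and HTR3A exceeded HTR7 in 6. HTR1E (2.74 ± 0.762 TPM) lay below HTR7 in all 11 animals. HTR4 (0.842 TPM), HTR1F (0.746 TPM), HTR3B (0.427 TPM) and HTR2B (0.0944 TPM) stayed below 1 TPM on average. The monoamine-degrading enzyme gene MAOB reached 82.8 ± 14.5 TPM. By contrast, the serotonin transporter gene SLC6A4 (0.276 TPM) and the synthesis gene TPH2 (0.121 TPM, 0 counts in 5 animals) were near 0. Both are expressed by serotonin neurons of the brainstem. HTR1A was among the genes not analysed here.

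Glutamate receptor genes followed a steep order in TPM. As for NRGN, a level per length depends on the annotated exons, here and for the serotonin and GABA receptors. GRIN1, the obligatory subunit of NMDA receptors, had 522 ± 118 TPM and stood above the next gene in all 11 animals, although its span overlaps LRRC26 on the other strand. The AMPA receptor subunits followed the order GRIA2 (127 ± 31.3 TPM), GRIA1 (73.2 ± 21.9 TPM), GRIA3 (51.2 ± 12.8 TPM) and GRIA4 (19.9 ± 3.52 TPM). The kainate receptor subunit GRIK5 (121 ± 19.5 TPM) could not be ranked against GRIA2, which was the higher in 7 animals. The glutamate delta subunit GRID1 (39.0 TPM) and the kainate subunits GRIK2 (19.6 TPM), GRIK1 (14.4 TPM) and GRIK4 (11.8 TPM) were in the middle of the list. The regulatory NMDA subunits were far lower than GRIN1, with GRIN2B at 7.53 ± 2.44 TPM, GRIN3A at 7.05 ± 2.56 TPM, GRIN2A at 6.72 ± 4.29 TPM and GRIN2D at 5.53 ± 1.77 TPM, in an order that the spread does not resolve. GRIN2A had 3.83 TPM in batch 1 and 9.12 TPM in batch 2, GRIK3 2.03 and 5.85 TPM, and a difference between batches was not tested here. GRIN3B (0.445 TPM) and GRIN2C (0.411 TPM) closed the list.

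Among GABA receptor genes, both subunits of the metabotropic GABA-B receptor stood first of the 17, GABBR1 at 413 ± 90.5 TPM and GABBR2 at 184 ± 50.3 TPM, each above the next gene in all 11 animals. Of the 17 GABA receptor genes measured, 14 are given here, so the levels below are not a full order. GABRB2, a beta subunit of synaptic GABA-A receptors, had 111 ± 27.3 TPM. GABRD, the extrasynaptic delta subunit, had 73.0 ± 9.65 TPM. GABRA5 (47.2 TPM, whose exons overlap another gene), GABRA3 (46.9 TPM) and GABRA4 (39.5 TPM) were lower. GABRA2 had 21.3 ± 10.9 TPM, with 12.1 TPM in batch 1 and 29.0 TPM in batch 2. GABRG1 had 23.8 TPM, GABRB1 7.31 TPM and GABRG3 2.11 TPM, and GABRE (0.283 TPM), GABRQ (0.0237 TPM) and GABRA6 (0.0816 TPM), the last a cerebellar subunit, were near 0.

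**Figure D1:**
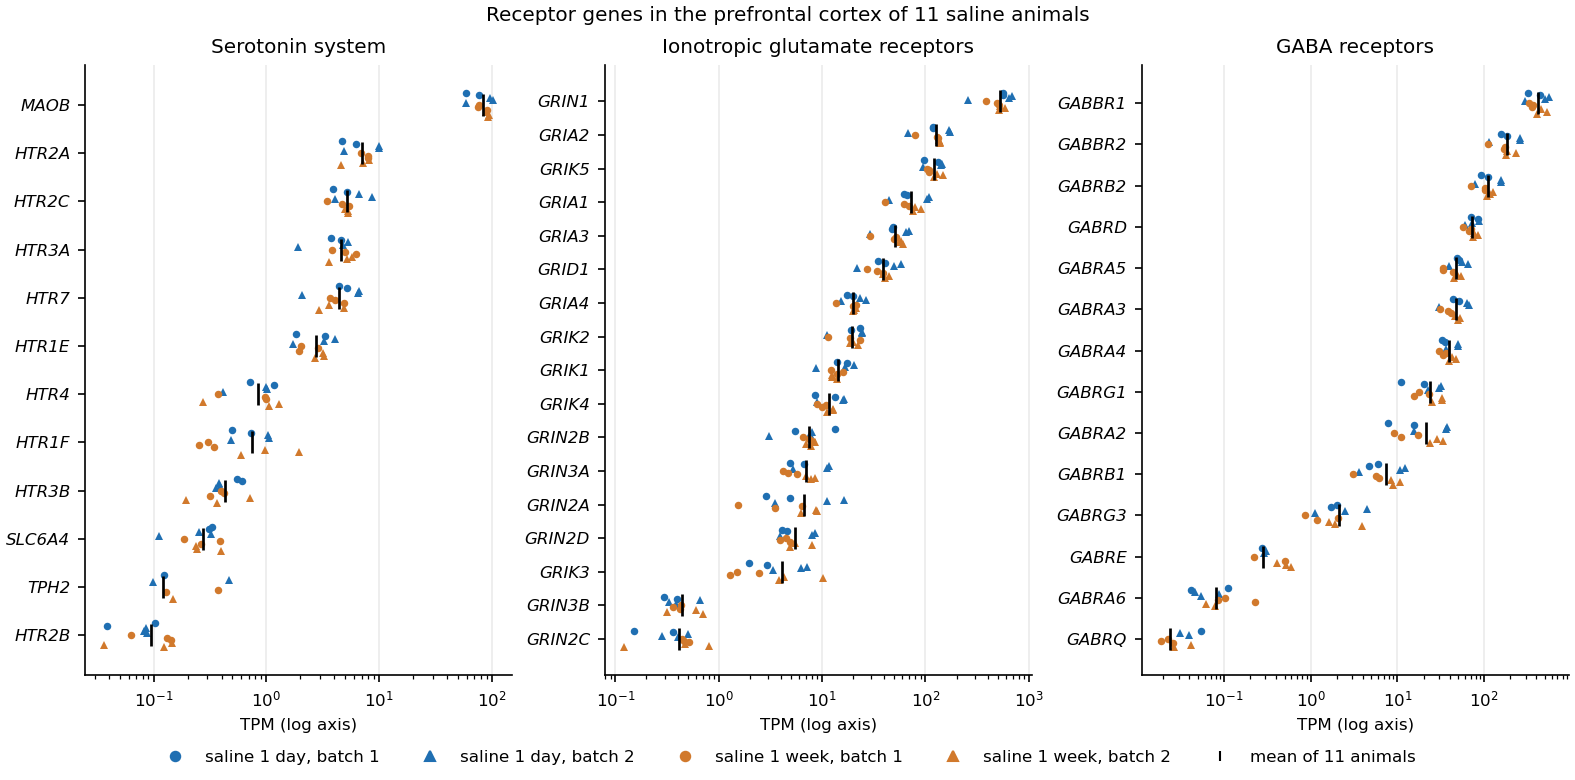
Levels of the reported members of 3 gene lists in the 11 saline animals, in TPM on a log axis, 1 symbol per animal with colour for the time and shape for the batch, and a vertical bar at the mean (animals at 0 are not drawn). HTR2A leads the serotonin receptors at 7.12 TPM, whereas GRIN1 (522 TPM) and GABBR1 (413 TPM) lead the glutamate and GABA receptors.

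Saline animals differed least in glycolysis and pan-neuronal genes and most in meningeal, myelin and ribosomal protein genes. The spread of a gene is its residual SD, the SD of log2 CPM left after time and batch were fitted. Its median over the 15049 genes tested was 0.23, with quartiles of 0.16 and 0.32, and 38 genes (0.253%) exceeded 1. The median was 0.14 for the 9 pan-neuronal markers, 0.13 for the 18 glycolysis genes, 0.19 for the 12 excitatory and 0.29 for the 16 inhibitory neuron markers. It was 0.62 for the 14 meningeal and fibroblast markers, 0.57 for the 18 myelin genes, 0.45 for the 46 ribosomal protein genes and 0.38 for the 35 immediate early genes.

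The myelin score ran from -0.90 in saline 1 day animal 1d_418 to 0.62 in saline 1 day animal 1d_420, so that the extremes belonged to the same group and batch. MBP, the myelin basic protein gene, had 5047, 5792, 3422, 1822 and 15982 CPM in animals 1d_256, 1d_260, 1d_416, 1d_418 and 1d_420, and 2917, 5090 and 9538 CPM in the lowest, the median and the highest saline 1 week animal. The score of immediate early genes ran from -0.55 in saline 1 week animal 1w_254 to 0.64 in saline 1 week animal 1w_426. ARC, which encodes a synaptic protein made on strong activity, had 200.6, 186.7, 48.3, 229.7, 548.8 and 108.6 CPM in animals 1w_245, 1w_252, 1w_254, 1w_424, 1w_426 and 1w_428, an 11.4-fold range that lay wholly within the saline 1 week group. In the same animals FOS, the classic activity marker, had 23.3, 30.2, 8.15, 24.6, 45.6 and 18.5 CPM and was again lowest in 1w_254 and highest in 1w_426. The meningeal score was highest in saline 1 week animal 1w_252 (0.86) and saline 1 day animal 1d_418 (0.61), and the interferon response score in saline 1 day animal 1d_416 (0.47).

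**Figure D2:**
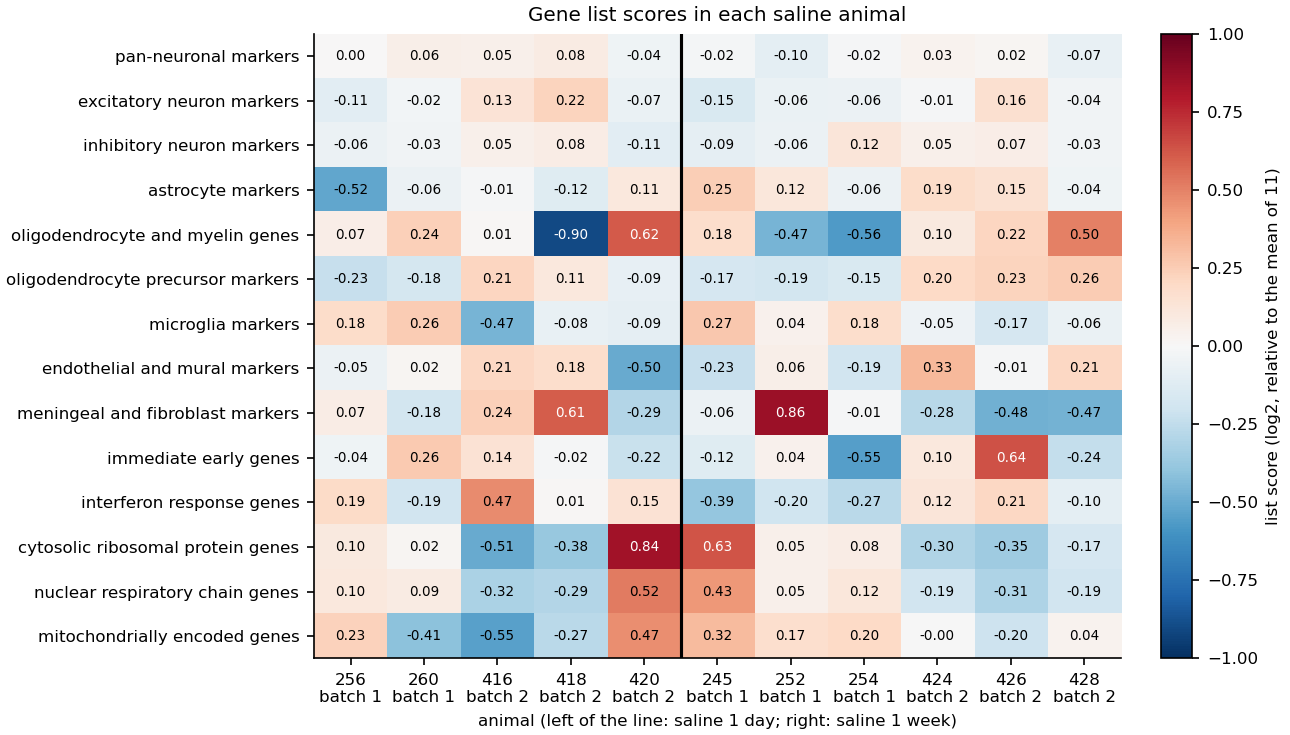
Scores of 14 gene lists (rows) in the 11 saline animals (columns), as the mean log2 CPM of the members relative to the mean of all 11, with red above and blue below that mean. Pan-neuronal markers stay between -0.10 and 0.08, whereas myelin genes run from -0.90 to 0.62 and ribosomal protein genes from -0.51 to 0.84.

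The 10 genes with the largest residual SD, among those with a mean of at least 1 CPM, were AQP1 (1.71), COLEC11 (1.35), AIRE (1.26), KRT8 (1.25), MFAP5 (1.24), SFRP5 (1.21), TTR (1.18), IDO1 (1.17), GSTO2 (1.103) and RSAD2 (1.103). AQP1, a water channel, had 9.80, 16.6, 1.32, 0.672 and 1.56 CPM in the 5 saline 1 day animals and 0.747, 1.27 and 11.6 CPM in the lowest, the median and the highest saline 1 week animal. It was near or above 10 CPM in animals 1d_256, 1d_260, 1w_424 and 1w_428 and below 2 CPM in the other 7. The keratin gene KRT8, the microfibril gene MFAP5, the secreted Wnt modulator gene SFRP5 and the tryptophan-degrading enzyme gene IDO1 were at their highest in animal 1w_252 or 1d_418, the animals with the most meningeal signal. MFAP5 had 4.92 CPM in 1w_252, 4.15 CPM in 1d_418 and 3.72 CPM in 1d_416, against 0 to 2.41 CPM in the other 8, and KRT8 ran from 0.0648 to 10.8 CPM. The part of the meninges in these genes was not tested. TTR, the choroid plexus transport protein gene, had 7.80 CPM in animal 1w_254 and 7.78 CPM in animal 1w_426 and at most 2.14 CPM in the other 9. RSAD2, an antiviral gene induced by interferon, had 27.1 CPM in animal 1d_416 and 1.04 CPM in animal 1w_245. COLEC11 and GSTO2 share exon span with RPS7 and GSTO1 on the same strand, and reads there were split between them.

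At the other end, with a mean of at least 10 CPM, DNAJA3, THOC5, TMEM214, SMARCA5, FAM120A, RDH11, PPP5C, VPS52, RRP7A and TARS1 had residual SDs of 0.03 to 0.04. They include the mitochondrial co-chaperone gene DNAJA3, the mRNA export gene THOC5 and the chromatin remodeller gene SMARCA5. THOC5 lay between 88.0 and 97.2 CPM in all 11 animals, a ratio of 1.104 between the highest and the lowest. SMARCA5 lay between 81.6 and 87.7 CPM in batch 1 and between 102.5 and 106.2 CPM in batch 2, so that its small residual SD holds within batches only.

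**Figure D3:**
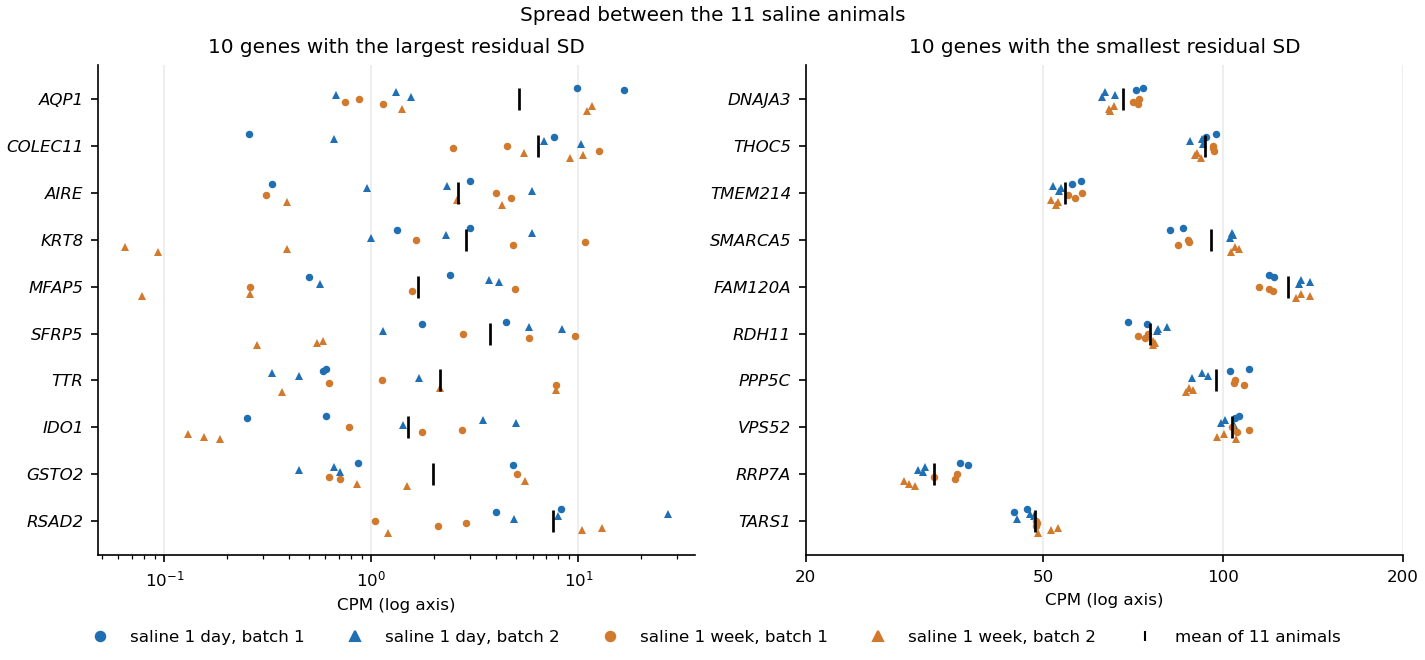
CPM on a log axis in each of the 11 saline animals for the 10 genes with the largest (left) and the smallest (right) residual SD, with colour for the time, shape for the batch and a vertical bar at the mean (animals at 0 are not drawn, and the axes differ). AQP1 spans 0.672 to 16.6 CPM, whereas THOC5 spans 88.0 to 97.2 CPM.

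No gene passed the test of saline 1 week against saline 1 day. The comparison asks how far the cortex of control animals differs between the times at which they were killed. With edgeR's quasi-likelihood test and Benjamini-Hochberg adjustment, 0 genes were higher and 0 lower of 15049 (0% each). At an unadjusted p under 0.05, 174 genes had higher values at 1 week (1.16%) and 129 lower (0.857%), 303 in all (2.01%). That is fewer than a threshold of 0.05 gives on average when no gene differs. DESeq2 called 1 lower gene (0.00665%), LXN, and limma-voom called 0, with 296 at that unadjusted p. The median log2 fold change over all genes was 0.00, and 51.7% were above 0. The 95% confidence interval lay within a 2-fold difference either way for 14212 genes (94.4%) and within 1.5-fold for 11689 (77.7%), reaching a median of 0.277 on the log2 scale to either side of the estimate. The labels make each library a separate animal.

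The gene with the smallest p was LXN, which encodes latexin, an inhibitor of carboxypeptidases known as a marker of claustral and deep lateral cortical neurons (ENSSSCG00000020984, chromosome 13, 98435319 to 98441785). It had 22.3, 22.0, 20.8, 15.8 and 29.5 CPM in the saline 1 day animals 1d_256, 1d_260, 1d_416, 1d_418 and 1d_420. In the saline 1 week animals 1w_245, 1w_252, 1w_254, 1w_424, 1w_426 and 1w_428 it had 12.8, 13.1, 12.8, 10.9, 9.26 and 8.36 CPM. Every 1 week animal lay below every 1 day animal, in both batches. The log2 fold change was -1.0015 ± 0.19 (SE), with an edgeR adjusted p of 0.241 that ranged from 0.107 to 0.9998 when 1 animal was left out, and a DESeq2 adjusted p of 0.00345. Within batches the log2 ratio of means was -0.78 and -1.21. The saline 1 day group was the highest of the 4: after psilocybin, LXN had 14.7 ± 4.64 CPM at 1 day and 12.02 ± 1.99 CPM at 1 week (SD, n = 6 each), and the difference between the saline and psilocybin time effects was -0.71 ± 0.26 (SE, edgeR adjusted p = 0.9999).

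The other 9 of the 10 lower genes with the smallest p, none of which passed (edgeR adjusted p = 0.9996 each), included 2 more with known expression in the claustrum. NR4A2, an activity-induced orphan nuclear receptor gene also known from claustral and deep-layer neurons, had 50.5, 52.4, 49.7, 46.7 and 57.0 CPM at 1 day. At 1 week it had 47.9, 38.0, 29.2, 39.3, 46.5 and 41.3 CPM in animals 1w_245 to 1w_428, 5 of them below the lowest 1 day animal (log2 fold change -0.34 ± 0.11). SMIM32, a small membrane protein gene, had 4.98, 8.82, 7.77, 5.88 and 4.67 CPM at 1 day and 4.86, 3.05, 1.67, 0.713, 0.389 and 2.32 CPM at 1 week (-1.78 ± 0.45). Only animal 1w_245 of the 1 week group reached the 1 day range. The claustrum-enriched genes GNB4 (-0.17 ± 0.16), NTNG2 (-0.06 ± 0.10) and SYNPR (0.04 ± 0.14), looked up after these values were seen, had intervals that include 0. GNB4 had 17.2 to 27.6 CPM in the 5 animals of batch 1 and 32.7 to 47.75 CPM in the 6 of batch 2. The part of claustral tissue in the LXN difference was not tested.

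GNG4, a G protein gamma subunit gene, had 45.0, 62.8, 80.8, 62.0 and 51.5 CPM at 1 day and 32.2, 40.2 and 46.0 CPM in the lowest, the median and the highest animal at 1 week (-0.60 ± 0.17). NMB, which encodes the peptide neuromedin B, had 8.94, 7.65, 5.04, 6.00 and 9.05 CPM at 1 day and 3.57, 4.65 and 6.69 CPM in the lowest, the median and the highest animal at 1 week (-0.63 ± 0.18). For each, 5 of 6 animals at 1 week were below the lowest 1 day animal. GABRR1, a GABA receptor rho subunit gene, had 0.258, 2.41, 2.97, 1.96 and 0.0707 CPM at 1 day and at most 0.279 CPM at 1 week (-3.34 ± 1.09), so 3 of the 5 saline 1 day animals held nearly all of its counts. The remaining lower genes were NKAIN4 (-0.74 ± 0.20), which overlaps an unnamed gene on the other strand, the kynurenine pathway gene QPRT (-0.76 ± 0.22), the retinoid receptor gene RXRG (-0.57 ± 0.16) and the ceramidase gene ACER3 (-0.25 ± 0.08). NKAIN4 and QPRT had similar values after psilocybin, -0.75 ± 0.20 and -0.63 ± 0.22.

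None of the 10 higher genes with the smallest p passed (edgeR adjusted p = 0.9996 each), and 2 of them, ALDH1L1 and CBS, belong to the astrocyte list. ALDH1L1, a folate enzyme used as an astrocyte marker (ENSSSCG00000030626, chromosome 7, 53748586 to 53794796), had 20.0, 24.6, 19.001, 22.4 and 21.3 CPM in the saline 1 day animals. At 1 week it had 38.9, 32.0, 26.9, 30.9, 25.8 and 26.8 CPM, so the groups did not overlap (0.48 ± 0.11). CBS, an enzyme of sulfur amino acid metabolism found in astrocytes, had 14.8, 18.0, 14.95, 15.1 and 16.7 CPM at 1 day and 16.4, 22.3 and 23.7 CPM in the lowest, the median and the highest animal at 1 week (0.38 ± 0.11). MFGE8 (0.31 ± 0.09) and MEGF10 (0.32 ± 0.10) encode an opsonin and an engulfment receptor, and are not in that list. MFGE8 had 100.5 to 145 CPM at 1 day and 141.8 to 188.9 CPM at 1 week, and 4 of 6 animals at 1 week were above the highest 1 day animal for both genes. After psilocybin the time difference was 0.06 ± 0.11 for ALDH1L1 and -0.12 ± 0.08 for MFGE8. The difference between the treatments' time effects did not pass for either (0.42 ± 0.15 and 0.43 ± 0.12, edgeR adjusted p = 0.9999).

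The other higher genes were the cell adhesion gene CADM1, the lysosomal protease gene TPP1, the neurotrophic serpin gene SERPINF1, the EF-hand gene PVALEF, the kinesin gene KIF24 and the kinase gene WEE2. CADM1 had 89.3 to 107.5 CPM at 1 day and 111.5 to 144.3 CPM at 1 week with no overlap (0.30 ± 0.08). TPP1 had 76.5, 77.2, 79.5, 78.7 and 59.6 CPM at 1 day and 71.4, 95.8, 99.3, 102.4, 90.1 and 99.4 CPM at 1 week (0.32 ± 0.10), the low value of each group lying in animal 1d_420 or 1w_245, which stood apart on the first principal component. The log2 fold change was 0.38 ± 0.12 for SERPINF1, 0.99 ± 0.29 for PVALEF, 0.59 ± 0.19 for KIF24 and 1.67 ± 0.59 for WEE2. SERPINF1 and KIF24 overlap SMYD4 and UBAP1 on the other strand, and WEE2 stayed at or below 1.05 CPM in all 11 animals.

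**Figure D4:**
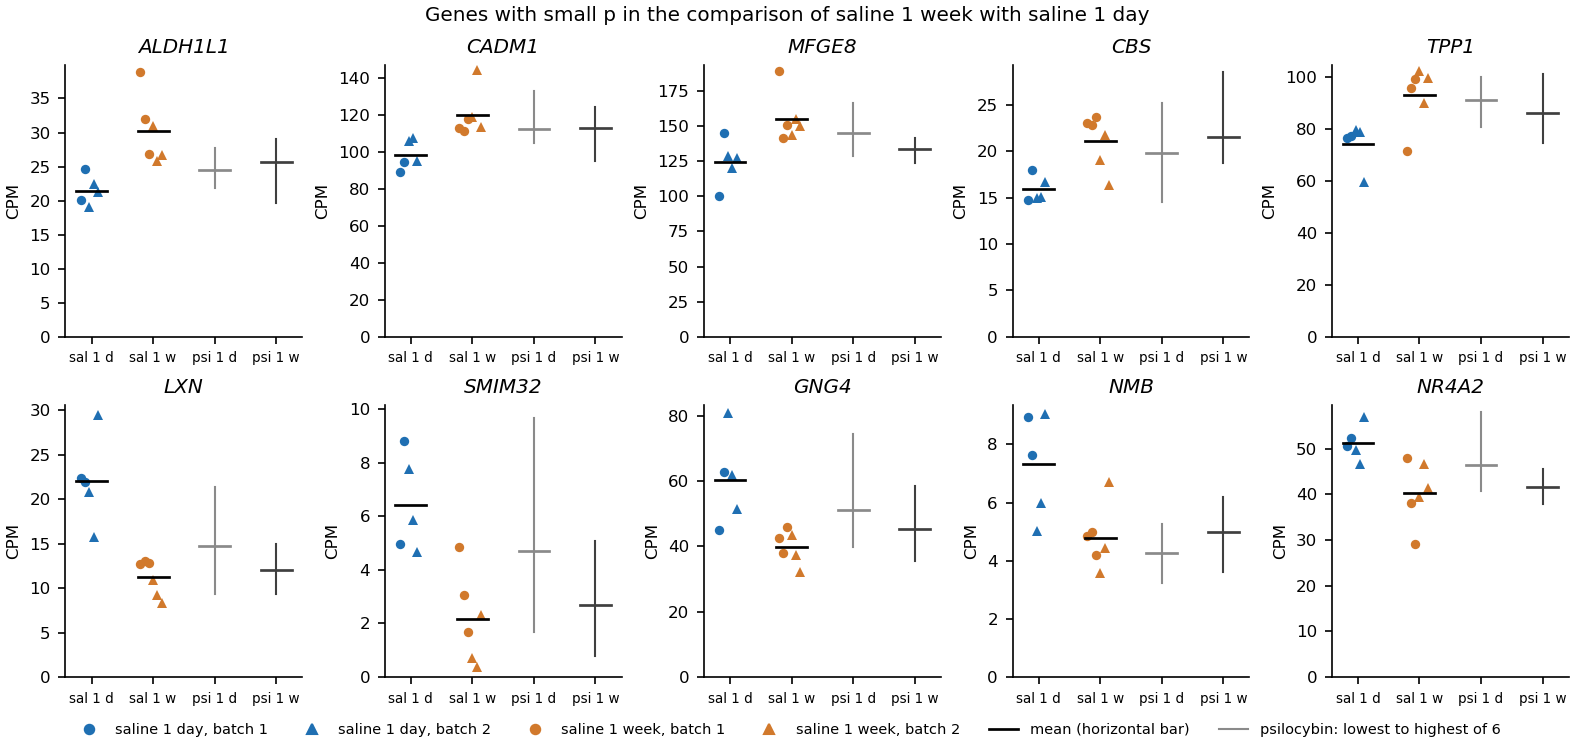
CPM of 10 of the 20 genes with the smallest p in saline animals at 1 day and 1 week, 1 symbol per animal with shape for the batch and a bar at the mean, beside the mean and the lowest to the highest of 6 animals in each psilocybin group. ALDH1L1, CADM1 and LXN do not overlap between the saline groups, and for the 5 genes of the lower row the saline 1 day mean is the highest of the 4 groups.

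Groups without overlap were found for 21 genes (0.14%), 11 higher (0.0731%) and 10 lower (0.0664%) at 1 week. Besides LXN, ALDH1L1 and CADM1 they included BCAN, the perineuronal proteoglycan brevican, with 237.2 to 291.9 CPM at 1 day and 298.9 to 385.2 CPM at 1 week (0.26 ± 0.09). They also included CHDH, the choline oxidising enzyme, with 26.2 to 32.9 CPM at 1 day and 33.5 to 37.9 CPM at 1 week (0.22 ± 0.10), and DENND10, a trafficking gene, with 34.1 to 40.3 CPM at 1 day and 29.9 to 33.6 CPM at 1 week (-0.21 ± 0.07). TARS1, one of the 10 genes with the smallest spread, also had no overlap, with 44.6 to 48.2 CPM at 1 day and 48.6 to 52.9 CPM at 1 week (0.11 ± 0.06). The remaining 14 genes were AKIP1, ATPSCKMT, C8orf88, CAB39L, DHODH, ERFL, FAM227B, MORC1, PRR15, RBM23, SNTB2, TLL1 and 2 without a symbol. If the animals were interchangeable, a gene would separate the groups in a given direction with a probability of 0.00216, more than either share found. Leaving out an animal cannot lower the number, which was between 33 and 73 when any 1 of the 11 was left out.

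Genes tied to psilocybin action did not pass, and the intervals of all 11 lay within a 2-fold difference either way. HTR2A had 13.1, 15.2, 21.3, 22.97 and 15.4 CPM at 1 day and 11.6, 20.8 and 21.9 CPM in the lowest, the median and the highest animal at 1 week (0.11, 95% interval -0.32 to 0.53). Its log2 ratio of means was 0.60 in batch 1 and -0.28 in batch 2. HTR2C (-0.13, -0.38 to 0.11), the neurotrophin gene BDNF (0.04, -0.33 to 0.41), its receptor gene NTRK2 (0.08, -0.16 to 0.31), the synaptic vesicle gene SV2A (-0.07, -0.34 to 0.19) and the stress-responsive gene FKBP5 (-0.13, -0.42 to 0.16) had intervals that include 0. Among immediate early genes the interval was widest for ARC (0.03, from -0.78 to 0.84), followed by FOS (-0.05, from -0.66 to 0.56) and NR4A1 (0.00, from -0.56 to 0.56), and it was smaller for EGR1 (-0.13, from -0.59 to 0.33) and for the phosphatase gene DUSP1 (0.05, from -0.34 to 0.43). Of these 11 genes 6 had a log2 fold change above 0 (median 0.00).

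Gene lists are given by their counts and medians, beside 51.7% of all genes above 0 and a median of 0.00, and in none did a member pass. All 13 astrocyte markers had a log2 fold change above 0 (median 0.21, range 0.10 to 0.48), led by ALDH1L1, CBS, GFAP (0.31 ± 0.14) and MLC1 (0.32 ± 0.16). They were above 0 for 13 of 13 in batch 1 (median 0.38) and 10 of 13 in batch 2 (median 0.05). Saline 1 day animal 1d_256 had the lowest astrocyte score (-0.52), and the median was 0.12 without it. GFAP, the main intermediate filament of astrocytes, had 1657, 2231, 2157, 1826 and 2828 CPM at 1 day and 2244, 2448 and 4218 CPM in the lowest, the median and the highest animal at 1 week. After psilocybin 11 of 13 were above 0, with a median of 0.06, and the difference between the time effects, saline minus psilocybin, was above 0 for 12 of 13 (median 0.18). It had an unadjusted p under 0.05 in 1 of them, beside 0.91% of all genes in that direction.

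Of 42 interferon response genes, 37 had a log2 fold change below 0 at 1 week (median -0.20), and none had an unadjusted p under 0.05. The median was -0.28 in batch 1 and -0.17 in batch 2, and lay between -0.27 (without 1d_260) and -0.13 (without 1d_256) when 1 animal was left out. IFIT1, an antiviral effector gene, had 25.8, 14.97, 31.9, 19.2 and 31.8 CPM at 1 day and 14.2, 16.6 and 24.3 CPM in the lowest, the median and the highest animal at 1 week (-0.43 ± 0.24). GBP1, a guanylate-binding protein gene, had 21.7, 24.0, 17.5, 15.2 and 27.3 CPM and then 13.7, 16.3 and 17.4 CPM (-0.39 ± 0.20). The groups overlapped for both, and the log2 fold change was -0.36 ± 0.18 for IFIT2 and -0.52 ± 0.32 for OAS2. After psilocybin, in animals that share no library with the saline groups, 40 of 42 were above 0 (median 0.38), beside 54.3% of all genes. The same difference between time effects was negative for 40 of the 42 (median -0.53). It had an unadjusted p under 0.05 in 17 of them, all negative, beside 1.11% of all genes, and an adjusted p under 0.05 in none. The members were measured in the same animals and are not independent observations, so these counts are no test of the list. Copies within the IFIT, GBP and OAS families make the counts of single members uncertain.

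Of 36 lists, 26 had a median of either sign depending on which animal was left out. The other 10 included the astrocyte, interferon response, pan-neuronal, postsynaptic scaffold and perineuronal net lists. The postsynaptic scaffold median nevertheless differed in sign between batches (0.16 in batch 1 and -0.02 in batch 2), whereas the others named here kept theirs. Of 46 cytosolic ribosomal protein genes 45 had a log2 fold change below 0 (median -0.12), but the median was 0.22 in batch 1 and -0.44 in batch 2, and 0.21 without saline 1 day animal 1d_420. RPL14, a large subunit protein gene, had 265.7, 252.1, 166.9, 197.2 and 522.7 CPM at 1 day and 185.9, 227.3 and 395.4 CPM in the lowest, the median and the highest animal at 1 week, the highest values belonging to animals 1d_420 and 1w_245. Of 57 nuclear respiratory chain genes 52 were below 0 (median -0.10), with a median of 0.08 without animal 1d_420. The 13 protein genes of the mitochondrial genome were all above 0 (median 0.11), with a median of -0.01 without animal 1d_260 and 0.32 without animal 1d_420. Their share of counts, together with the other mitochondrial genes, was 11.7% ± 3.10 (SD, n = 5) at 1 day and 12.8% ± 1.43 (SD, n = 6) at 1 week. The difference of 1.15 percentage points did not pass (two-sided exact permutation p = 0.422, smallest possible 0.00216), and it was 1.53 points in batch 1 and 0.538 points in batch 2.

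Several lists had opposite medians in the batches. Myelin genes had a median of -0.08, which was 0.13 without animal 1d_420 and -0.29 without animal 1d_418. They were below 0 for 17 of 18 in batch 1 (median -0.48) and above 0 for 15 of 18 in batch 2 (median 0.20). Immediate early genes were above 0 for 7 of 35 in batch 1 (median -0.27) and 29 of 35 in batch 2 (median 0.22), with a median of 0.03 in all 11 animals and -0.14 without 1w_426. Meningeal and fibroblast markers were above 0 for 12 of 14 in batch 1 (median 0.46) and 2 of 14 in batch 2 (median -0.66), beside their high scores in animals 1w_252 of batch 1 and 1d_418 of batch 2. Their median was -0.14 in all 11 animals, 0.079 without 1d_418 and -0.42 without 1w_252. Each batch holds 5 or 6 saline animals.

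Neuronal lists stayed near 0. The medians were -0.06 for 9 pan-neuronal markers (8 below 0), -0.03 for 12 excitatory neuron markers, 0.01 for 16 inhibitory neuron markers, -0.04 for 18 presynaptic release genes, 0.09 for 17 postsynaptic scaffold genes, -0.03 for 17 ionotropic glutamate receptor genes and -0.02 for 14 GABA receptor genes. FEZF2, the fate gene of deep-layer projection neurons, was 1 of 2 excitatory markers with an unadjusted p under 0.05 (-0.33 ± 0.13, edgeR unadjusted p = 0.0195). Both were lower, beside 0.857% of all genes in that direction. The interneuron gene ADARB2 was the only such inhibitory marker (0.27 ± 0.09, edgeR unadjusted p = 0.00628). It was higher, beside 1.16% of all genes in that direction, and these counts are no test of the lists. FEZF2 had 28.0, 27.9, 26.1, 25.2 and 28.9 CPM at 1 day and 15.7, 21.9 and 27.55 CPM in the lowest, the median and the highest animal at 1 week, and its difference after psilocybin was -0.42 ± 0.13. Of 8 tested genes of the serotonin system 6 were above 0 (median 0.06), and MAOB had 74.0, 83.0, 92.2, 103.8 and 82.3 CPM at 1 day and 89.9, 101.5 and 110.5 CPM in the lowest, the median and the highest animal at 1 week (0.23 ± 0.09, unadjusted p = 0.0152).

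**Figure D5:**
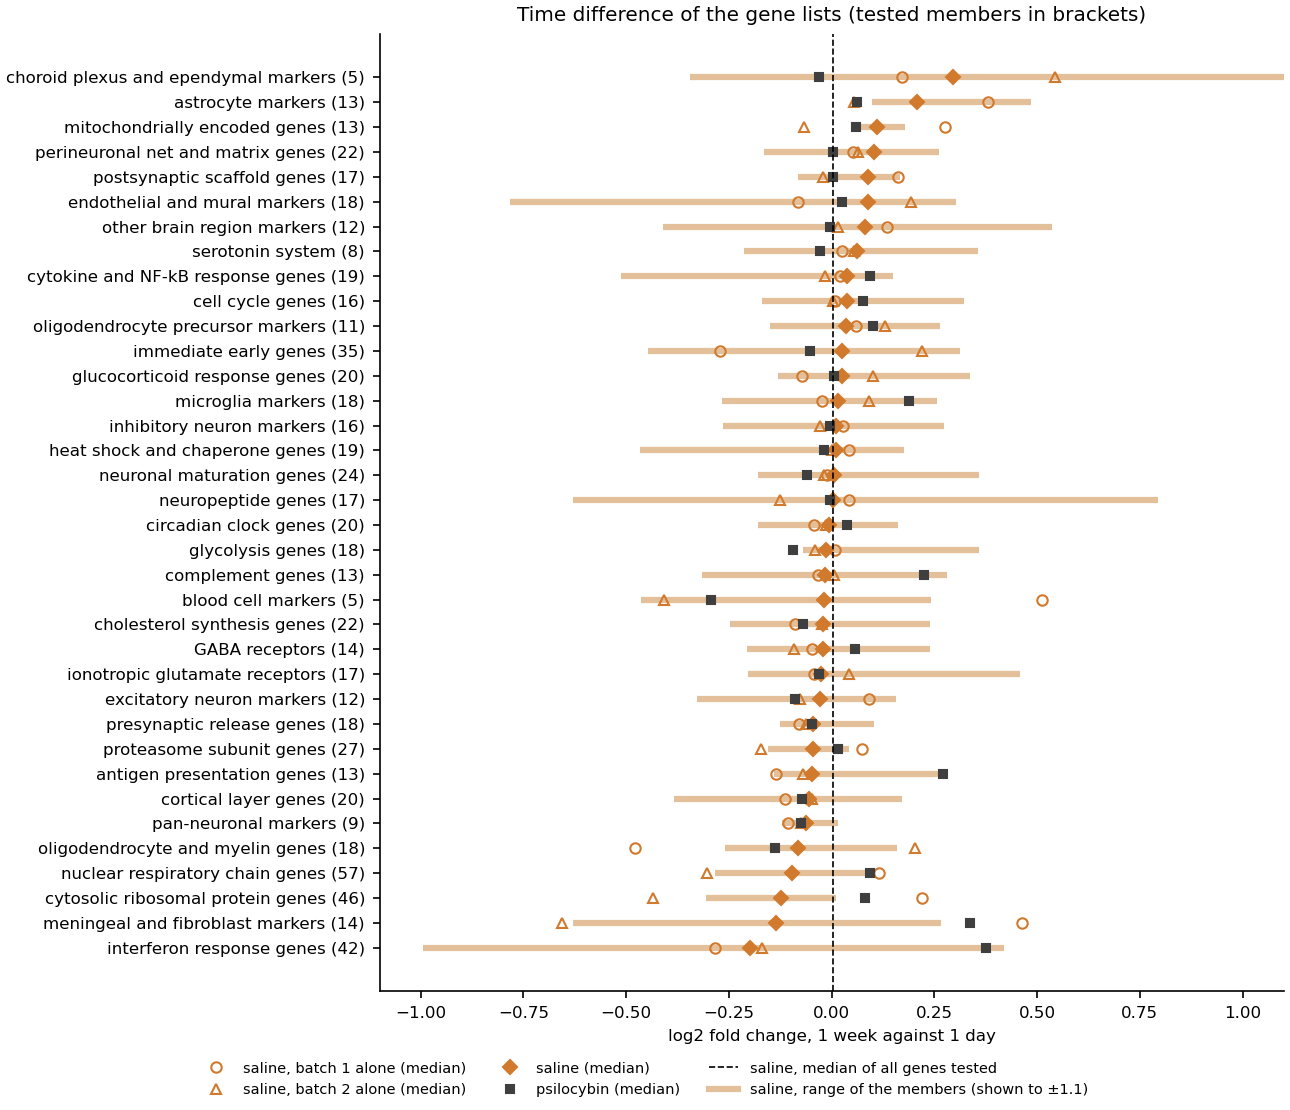
Log2 fold change of 1 week against 1 day for 36 gene lists, as the median (diamond) and the range of the tested members (bar) in saline animals, the saline median in each batch alone (open symbols), the median after psilocybin (square) and the saline median of all genes (dashed line). Astrocyte markers lie at 0.21 and interferon response genes at -0.20 in saline, against 0.06 and 0.38 after psilocybin, and ribosomal protein and meningeal genes have opposite signs in the batches.

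The remaining lists had medians between -0.05 and 0.29, the latter for 5 choroid plexus and ependymal markers that include TTR (2.17 ± 0.93). Endothelial and mural markers were above 0 for 16 of 18 (median 0.09) and for 9 of 18 (median 0.00) without animals 1d_420 and 1w_245, with a median of -0.02 without 1d_420 alone, and the muscle myosin gene MYH11 was the lowest (-0.78 ± 0.31). Microglia markers were split 9 and 9 (median 0.02), complement genes 6 and 7 (median -0.02), and 16 of 22 perineuronal net and matrix genes were above 0 (median 0.10). Circadian clock genes (9 of 20 above 0, median -0.01), glucocorticoid response genes (12 of 20, median 0.02) and heat shock and chaperone genes (11 of 19, median 0.01) lay close to the background.

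The time difference in saline was compared with that after psilocybin over all genes. No gene passed for the difference between them with edgeR (304 at an unadjusted p under 0.05, 2.02%), nor for 1 week against 1 day after psilocybin (479, 3.18%, of which 1.53% higher and 1.65% lower), where DESeq2 called 1 higher gene (0.00665%). The shares of 2.02% and 3.18% are also below what a threshold of 0.05 gives on average when no gene differs. Log2 fold changes had the same sign in both for 53.1% of all 15049 genes, and for 200 (66.0%) of the 303 with an unadjusted p under 0.05 in saline.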

How the data were processed

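The submitters' processing notes name fastp 0.20.0, STAR 2.6c and featureCounts 1.5.1. Per the file headers, counting on susScr11 ignored strand and split reads shared by overlapping genes into fractions, so the deposited values are expected counts (72.2% whole) and can include reads of a neighbour. They were rounded, changing a library total by at most 0.001%. Near-identical copies (ribosomal protein, UBB, CALM2, HBB, IFIT, GBP and OAS families) are uncertain.

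Of 25880 genes (14857 with a symbol), 15049 passed filterByExpr (minimum count 10, total 15). TMM-scaled counts of all 23 libraries were fitted with edgeR 4.0.16 (R 4.3.3; robust quasi-likelihood, terms for the 4 groups and the batch) and tested two-sided at an adjusted p under 0.05. List scores used log2(CPM + 0.5). Models were tested on simulated counts. The members, the 37 gene lists and the naming rule were chosen with earlier results of these data known. Named genes are the 10 with the smallest p in each direction, 12 genes of interest, up to 4 list members by p or, for cell types, by level, the most abundant genes, receptor list members, and the 10 most and least variable genes; further claustrum genes and genes without overlap were chosen after their values were seen. A few genes that the rule names are not reported here.

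Alternatives were other scaling (RLE), looser and tighter filtering, DESeq2 1.42.0, limma-voom (limma 3.58.1), dropping robustness or the batch, saline alone, single batches, a surrogate variable (sva 3.50.0), and leaving out animals.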

Additional observations from a re-analysis of the deposited data

Results flagged for a closer look

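For values not chosen beforehand, chance alone gives an animal standing apart in about 1 in 20 groups. The genes examined included some chosen by p or by spread, for which this rate need not hold. One animal stood apart from the rest of its group, by the gap to its nearest neighbour relative to the range, in 12 of 180 groups. In the saline 1 week group these were animal 1w_426 for CADM1 (144.3 CPM) and ARC (548.8 CPM), animal 1w_245 for MFGE8 (188.9 CPM), animal 1w_254 for NTRK2 (549.3 CPM), and animal 1w_252 for MFAP5 (4.919 CPM) and for the meningeal and fibroblast score (0.8558 on the log2 scale). In the saline 1 day group they were animal 1d_420 for TPP1 (59.62 CPM) and TTR (1.697 CPM), animal 1d_256 for KIF24 (3.609 CPM), animal 1d_260 for GSTO2 (4.824 CPM) and the glycolysis score (0.1228 on the log2 scale), and animal 1d_416 for RSAD2 (27.1 CPM). No difference between the time effects in saline and psilocybin animals passed for any gene.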

How the results depend on the processing

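The count of 0 genes called between the saline times, and the count of 0 for the difference between time effects, held under all alternatives, except that DESeq2 called 1 gene between the saline times, as it did after psilocybin. The 20 genes named by p kept their direction in all 454 values computed under alternatives. They were chosen by p in the main fit and the alternatives reuse its animals, so this follows largely from the choice. Of the 707 values of named genes under alternatives, which include those 454, 37 had the opposite sign. All 37 belonged to genes of interest, so their own share is larger than 37 of 707. HTR2A was -0.29 and FOS 0.42 in batch 2 alone, and HTR2C was 0.11, BDNF -0.35, ARC -0.63, NR4A1 -0.44 and DUSP1 -0.11 in batch 1 alone. ARC was -0.23 and NR4A1 -0.11 with limma-voom, NR4A1 was -0.0014 with saline libraries alone, and BDNF was -0.080, ARC -0.0072 and NR4A1 -0.11 without animals 1d_420 and 1w_245. Leaving out 1 animal gave ranges of -0.00019 to 0.23 for HTR2A, -0.20 to 0.0081 for HTR2C, -0.080 to 0.18 for BDNF, -0.016 to 0.17 for NTRK2, -0.33 to 0.14 for FOS, -0.44 to 0.26 for ARC, -0.33 to 0.0035 for EGR1, -0.26 to 0.16 for NR4A1 and -0.049 to 0.17 for DUSP1. The number of genes without overlap, which leaving out an animal cannot lower, was 33 to 73 with 1 animal left out. Of 851 list medians 12 moved by more than the SD between animals: in batch 1 alone, excitatory neuron markers (0.090), blood cell markers (0.51), meningeal markers (0.46) and glucocorticoid response genes (-0.073), and in batch 2 alone, oligodendrocyte precursor markers (0.13), blood cell markers (-0.41), meningeal markers (-0.66), neuropeptide genes (-0.12) and glucocorticoid response genes (0.10). With 1 animal left out, medians ranged from 0.025 to 0.15 for oligodendrocyte precursor markers, -0.45 to 0.23 for blood cell markers and -0.031 to 0.21 for other brain region markers. The causes were not tested. No paired analysis was possible because animal numbers are not shared between groups. With 5 and 6 animals, the 95% interval reached a median of 0.277 to either side of a log2 fold change, and smaller differences were mostly not resolved.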
